A study of Rattus norvegicus with 20 samples.

Results

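The genes described here encode contractile and calcium-handling proteins that separate slow from fast striated muscle fibres. They are 4 slow fibre genes, Tnnt1, Tnnc1, Tnni1 and Myh7, and 6 fast fibre genes, Tnnt3, Myh2, Myh4, Myh13, Actn3 and Pvalb, and were taken as the non-control features of the rat array that carry these gene names. The 10 genes had 23 features and 13 probes among 58717 non-control features and 30367 probes, and all 10 passed the filter on dim probes that kept 13597 genes. Their levels were compared across oesophageal tissue of Wistar rats in 5 groups of 4 arrays. The 3 drug groups had surgically induced reflux oesophagitis and received STW5 at 0.5 ml/kg (low dose), STW5 at 2 ml/kg (high dose) or omeprazole at 30 mg/kg. The untreated group had the same operation and no drug, and the sham group had a sham operation. Dosing began 7 days ahead of the operation and went on for 10 days afterwards. STW5 is a liquid combination of plant extracts used for functional gut disorders, and omeprazole blocks gastric acid secretion by inhibiting the proton pump. The labels give neither the age nor the sex of the rats, nor which level of the oesophagus was taken.

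Striated muscle contracts when calcium binds troponin C, which moves troponin I and troponin T on the thin filament and lets myosin heads pull on actin. Slow and fast fibres build this machinery from different genes, so that each has its own troponin T, troponin I, troponin C and myosin heavy chains, and fast fibres also hold alpha-actinin 3 in their Z discs and the calcium buffer parvalbumin. In rodents the outer muscle coat of the oesophagus is striated along nearly its whole length, whereas the muscularis mucosae is smooth muscle.

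The slow and fast isoforms descend from common ancestors, and the probes show how far the array can tell them apart. The following lines give the second Tnnt1 probe and the Tnnt3 probe, with the bases that are identical in an ungapped alignment in capitals, 5′ to 3′.
Tnnt1: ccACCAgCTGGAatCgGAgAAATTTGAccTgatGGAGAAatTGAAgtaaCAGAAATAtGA
Tnnt3: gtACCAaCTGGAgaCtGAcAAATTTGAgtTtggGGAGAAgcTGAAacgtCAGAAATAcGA
Both probes are 60 bases long and align over their full length, with 41 of 60 aligned bases identical. The Tnnt1 values below come from the other, brighter Tnnt1 probe unless the second probe is named. That brighter probe had 25 of 56 aligned bases identical to the Tnnt3 probe. The slow myosin gene Myh7 and the fast myosin gene Myh2 were likewise probed over a shared stretch, in which 29 of 44 aligned bases were identical.
Myh7: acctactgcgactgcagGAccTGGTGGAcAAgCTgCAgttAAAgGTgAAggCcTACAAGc
Myh2: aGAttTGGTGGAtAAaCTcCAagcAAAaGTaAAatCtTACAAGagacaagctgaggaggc
The brighter Myh13 probe overlapped the probe of Myh6, the alpha-cardiac myosin gene, which is no member, and here 29 of 37 aligned bases were identical.
Myh13: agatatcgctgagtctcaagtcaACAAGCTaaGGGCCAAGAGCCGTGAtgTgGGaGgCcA
Myh6: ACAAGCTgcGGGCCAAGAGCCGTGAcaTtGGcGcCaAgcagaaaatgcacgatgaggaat
How much RNA of a related gene binds each probe was not tested.

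In the GRCr8 annotation Myh2 (chr10:52355739-52382235), Myh4 (chr10:52422148-52445296) and Myh13 (chr10:52511773-52567951) lie in a cluster that also holds Myh1 and Myh8, and Myh7 (chr15:32416525-32439851) lies next to Myh6. Tnnt1 (chr1:78349035-78359394), Tnnt3 (chr1:207082014-207099014) and Actn3 (chr1:211588473-211604401) are on chromosome 1. Pvalb (chr7:111653820-111668469), Tnni1 (chr13:49781529-49793385) and Tnnc1 (chr16:6408607-6412070) lie on other chromosomes. Because Myh2 and Myh4 were called together in 4 comparisons below, the 250 bases before their start sites (RefSeq, GRCr8, plus strand) are given with matches to 3 motifs in capitals, namely the TATA-box letters TATAAA, the MCAT core CATTCC and the MEF2 motif.
Myh2 (chr10:52355489-52355738): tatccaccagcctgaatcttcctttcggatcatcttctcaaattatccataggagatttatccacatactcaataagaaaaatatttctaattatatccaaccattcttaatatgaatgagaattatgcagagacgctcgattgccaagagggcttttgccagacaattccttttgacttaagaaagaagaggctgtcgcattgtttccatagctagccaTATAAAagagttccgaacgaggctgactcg
Myh4 (chr10:52421898-52422147): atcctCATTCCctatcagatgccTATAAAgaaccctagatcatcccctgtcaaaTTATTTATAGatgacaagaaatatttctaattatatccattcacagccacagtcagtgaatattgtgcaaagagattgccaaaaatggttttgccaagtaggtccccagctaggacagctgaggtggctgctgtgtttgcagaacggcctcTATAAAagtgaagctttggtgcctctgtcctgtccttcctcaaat
On either strand, TATAAA was present in the 250 bases of 3 of the 8 members that had a promoter entry, namely Tnnt1, Myh2 and Myh4, against 12.9% of 33469 promoters. CATTCC, which lies in the element bound by TEAD factors, was present in Myh4 alone, against 12.1% of promoters. The MEF2 motif was likewise present in Myh4 alone, where it overlaps a reverse-strand TATAAA, against 2.96% of promoters. These matches describe the letters in this window and no binding was measured.

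Several features of the arrays bear on every value. Per array, 61.5% to 70.5% of features passed the scanner's background test, and 0 features were saturated. Slide 3 carried the high-dose STW5 and the omeprazole group, slide 2 the low-dose STW5 and the untreated group, and slide 1 the sham group. Slide and group therefore cannot be told apart, except for low-dose STW5 against untreated and high-dose STW5 against omeprazole, whose groups share a slide. Replicates 1 and 2 of low-dose STW5 differed by 1.38 times the spread between spots of 1 array. Other pairs within groups differed by at least 2.59 times. Pairs of different groups differed by at least 2.27 times, the lowest being sham replicate 2 and omeprazole replicate 2. The low-dose replicates 1 and 2 were therefore averaged and counted as 1 sample (n = 3). The authors' deposited value table has 20 columns, of which 8, all STW5 samples, held the values of an array labelled with the opposite dose. Which dose those arrays carry is not settled, and dose names here follow the scanner files. Levels are log2 signals relative to the 75th percentile of the array. A difference of 1 on this scale is a 2-fold change. Each probe has its own brightness, so levels are compared between groups and not between genes. Except for Myh13, every probe the fit used was well above background on all 20 arrays. The brighter Myh13 probe was well above background on 3 of 4 untreated arrays and on all arrays of the other groups.

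Rats with untreated oesophagitis had higher levels of 2 slow troponin genes and lower levels of 4 fast fibre genes than sham rats. The arrays of these groups lay on different slides, so operation and slide cannot be told apart here. Of the 4 slow genes 2 rose, namely Tnnt1 and Tnnc1, and 0 fell. Of the 6 fast genes 4 fell, namely Actn3, Myh2, Pvalb and Myh4, and 0 rose. Over all 13597 genes 32.9% were called in either direction, 15% as higher and 17.9% as lower. The median difference was 1.28 for the slow genes, -1.45 for the fast genes and -0.08 for all genes tested. In bulk tissue, fewer cells of a type and less RNA per cell cannot be told apart.

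Tnnt1, the slow troponin T gene, had levels of 4.43, 5.94, 6.03 and 4.84 in untreated rats, against 3.63, 3.36, 2.97 and 5.56 in sham rats. Sham replicate 4 lay above 2 of the 4 untreated samples, so the groups overlapped. The log2 difference was 1.43 ± 0.52 (SE, n = 4 and 4), a 2.70-fold higher level (limma adjusted p = 0.0444). Tnnc1, which encodes the troponin C of slow and cardiac muscle, had levels of 2.09, 3.08, 4.4 and 3.83 in untreated rats, against 2.19, 0.53, 0.76 and 2.88 in sham rats. Here too the groups overlapped, and sham replicate 4 was again the highest of its group. The difference was 1.76 ± 0.51 (3.38-fold, adjusted p = 0.0147). Without sham replicate 4 the differences were 1.99 for Tnnt1 and 2.19 for Tnnc1. The Tnnt1 call was also lost with median scaling (adjusted p = 0.0579), and with these 2 groups fitted alone Tnnt1, Tnnc1 and Myh2 had adjusted p-values of 0.123, 0.0861 and 0.0627. The Tnnt1 call was lost when any of 11 of the 19 samples was left out, with an adjusted p of up to 0.142, and the Tnnc1 call was lost without sham replicate 3 (adjusted p = 0.0543) or untreated replicate 3 (adjusted p = 0.0536).

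The other slow genes did not pass. Tnni1, the slow troponin I gene, averaged 3.49 ± 0.64 in untreated rats and 3.45 ± 0.66 in sham rats (SD, n = 4 each), a difference of 0.04 with a 95% interval of -0.71 to 0.79. Myh7, the slow myosin heavy chain gene, had levels of -2.07, -1.29, 0.03 and -4.18 in untreated rats, against -3.24, -3.20, -3.56 and -2.0 in sham rats. The untreated samples spanned both the highest and the lowest value of the 8, and the difference of 1.12 had an interval of -0.87 to 3.11.

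**Figure D1:**
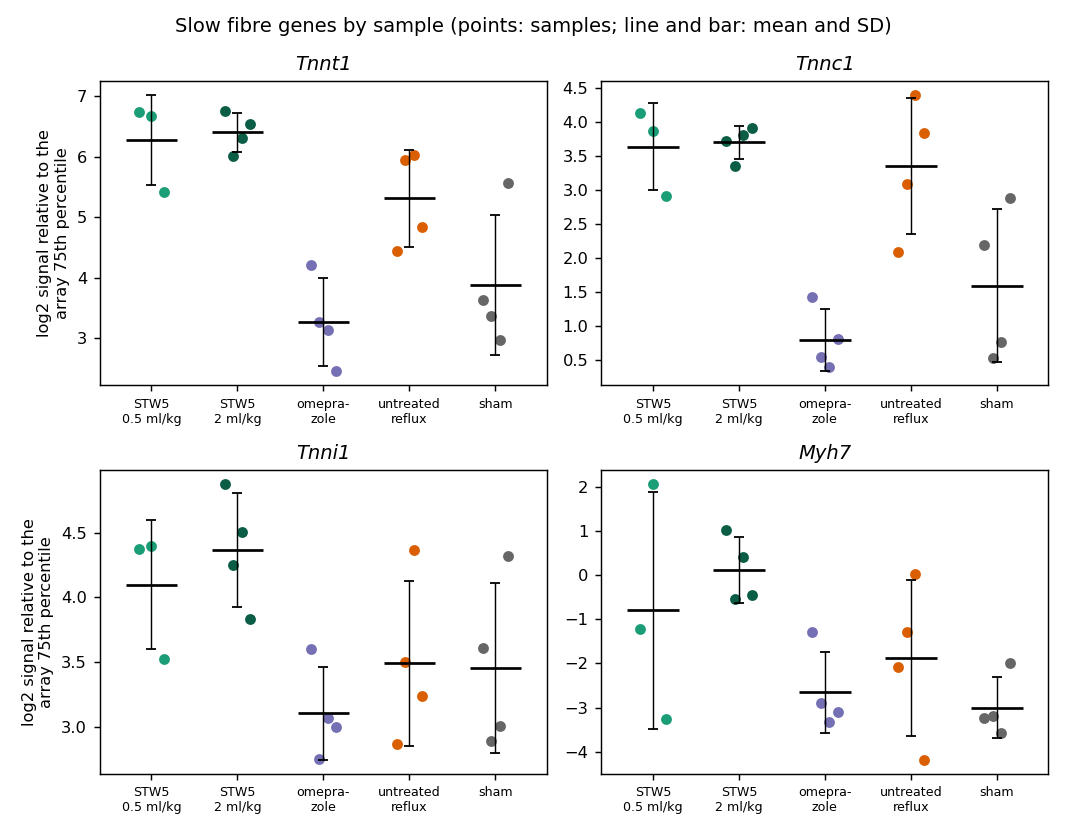
Level of each slow fibre gene (vertical axis, log2 signal relative to the 75th percentile of the array) by group, with a point per sample and the mean with SD. Tnnt1 and Tnnc1 were high in both STW5 groups and low in omeprazole rats, and sham replicate 4 lay above the other sham samples in all 4 genes.

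Among the fast genes Actn3, which encodes the alpha-actinin of fast fibres, differed most from sham. Its levels were 2.95, 3.62, 3.97 and 4.08 in untreated rats, against 6.42, 5.38, 6.42 and 6.03 in sham rats. Every untreated sample lay below every sham sample. The difference was -2.40 ± 0.37, a 5.29-fold lower level (adjusted p = 0.000355). Pvalb, the gene of the calcium buffer parvalbumin, had levels of 0.89, 1.28, 0.52 and 0.55 in untreated rats, against 2.50, 2.34, 2.34 and 2.13 in sham rats. These groups did not overlap either, and the sham samples lay close together (SD 0.15). The difference was -1.52 ± 0.30 (2.87-fold lower, adjusted p = 0.00163).

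Of the fast myosin genes Myh4 and Myh2 fell. Myh4, which encodes the fastest limb myosin, IIb, had levels of -3.29, -3.85, -4.43 and -3.69 in untreated rats, against -2.38, -2.68, -2.45 and -2.50 in sham rats, again without overlap (-1.31 ± 0.35, adjusted p = 0.00927). Myh2, which encodes myosin IIa, had levels of 0.93, 3.03, 2.04 and 1.86 in untreated rats, against 2.85, 3.29, 3.39 and 4.90 in sham rats. Untreated replicate 2 lay above the lowest sham sample, so Myh2 overlapped, and its difference was -1.65 ± 0.44 (3.13-fold lower, adjusted p = 0.00928). Its second probe gave -1.94 ± 0.57. Myh13, the gene of the superfast myosin of extraocular and laryngeal muscle, averaged -4.50 ± 1.13 in untreated rats and -3.12 ± 0.79 in sham rats (-1.38 ± 0.60, adjusted p = 0.0859). Tnnt3, the fast troponin T gene, had levels of 5.42, 6.72, 6.80 and 6.75 in untreated rats, against 7.44, 6.66, 7.39 and 7.50 in sham rats (-0.82 ± 0.31, adjusted p = 0.0526). Untreated replicate 1 and sham replicate 2 each lay well below the rest of their group. The 3 fast genes whose groups did not overlap, Actn3, Pvalb and Myh4, stood among 12.7% of all genes that lay lower in untreated rats without overlap. The calls of Actn3, Pvalb, Myh2 and Myh4 were kept whichever of the 19 samples was left out, and with normexp background Myh4 stood at -0.74.

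**Figure D2:**
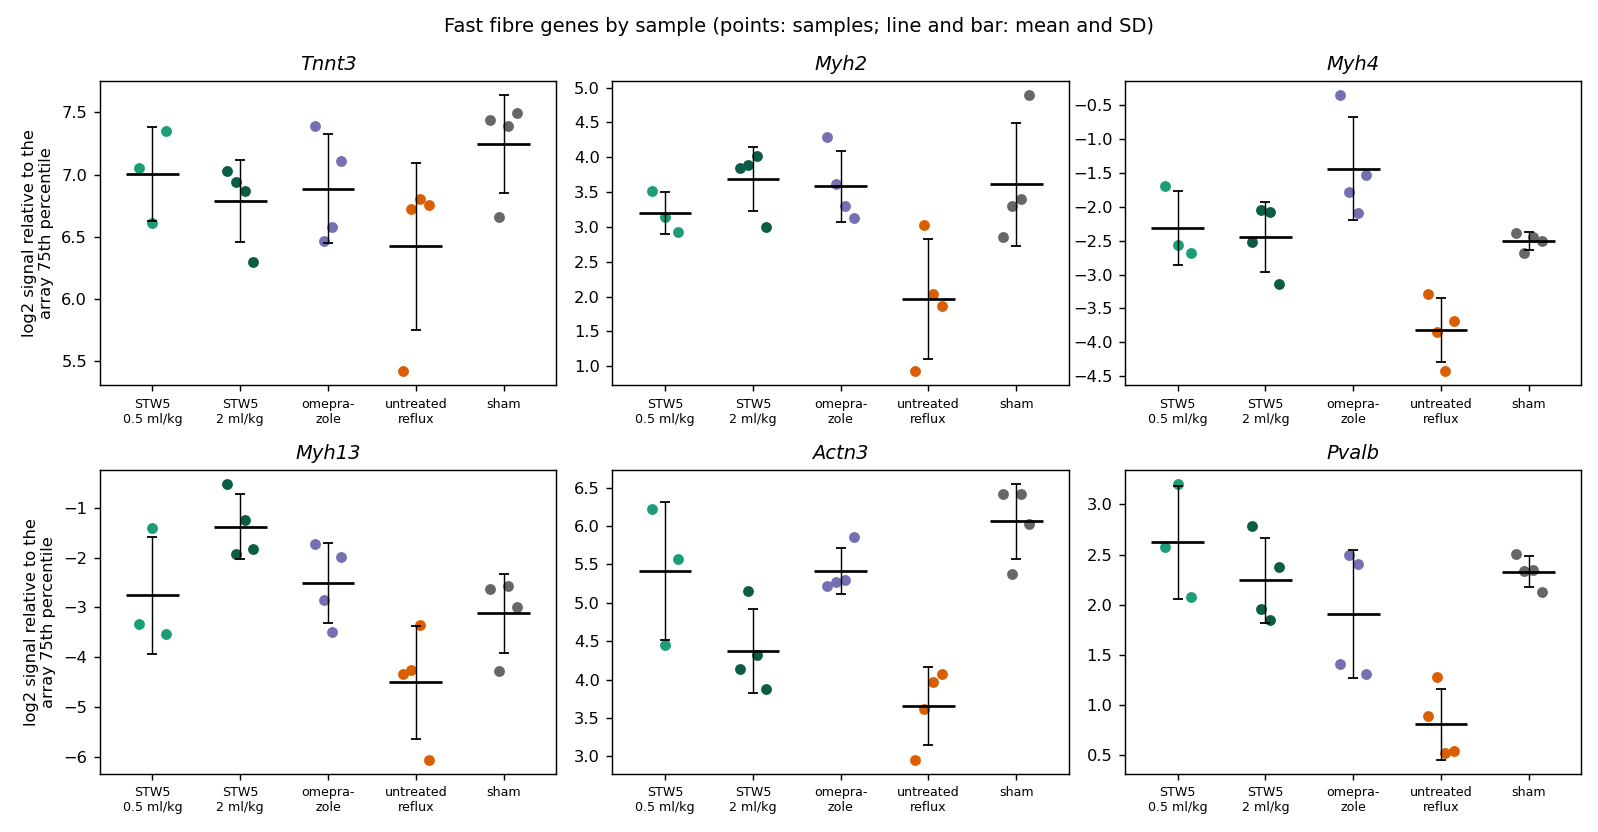
Level of each fast fibre gene (vertical axis, log2 signal relative to the 75th percentile of the array) by group, with a point per sample and the mean with SD. In Pvalb and Myh4 every untreated sample lay below every sample of the other groups, narrowly so for omeprazole replicate 4 of Pvalb (1.31, against 1.28 in the highest untreated sample).

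Other muscle genes showed whether the members moved alone. Of 12 measured genes in the list of other fast fibre genes 8 fell and 0 rose, among them Pygm, the muscle glycogen phosphorylase gene (-1.39 ± 0.35), Pgam2, a muscle glycolysis gene (-1.33 ± 0.37), Mylk2, the skeletal myosin light chain kinase gene (-1.35 ± 0.39), and Casq1, the fast-fibre calsequestrin gene (-1.24 ± 0.37). Of 13 measured genes used by all striated fibres 10 fell and 0 rose, including Smpx (-1.39 ± 0.33) and the triadin gene Trdn (-1.48 ± 0.37). The median difference was -1.14 for the other fast fibre genes and -1.27 for the genes of all striated fibres, beside -1.45 for the fast members. The lower levels were thus not particular to fast fibre genes. Of 9 measured genes in the list of other slow fibre genes 1 rose and 1 fell. Tpm3, the slow tropomyosin gene that is also expressed outside muscle, rose by 1.08 ± 0.24, and Mybpc1, the slow myosin-binding protein C gene, changed by -1.15 ± 0.36. The median of that list was -0.65, and 1 of its 9 measured genes stood above 0. Of 11 measured developmental muscle genes 2 rose, the cardiac and embryonic troponin T gene Tnnt2 (2.39 ± 0.54) and the fetal acetylcholine receptor gene Chrng (2.12 ± 0.73), and 2 fell, the cardiac actin gene Actc1 (-1.26 ± 0.38) and Myh8 (-0.59 ± 0.22). Of 9 measured regulators of fibre type 6 fell and 0 rose, including Six4 (-1.51 ± 0.32), Tbx15 (-1.51 ± 0.32) and Sox6 (-1.43 ± 0.31), which in mouse promote the fast programme or repress slow genes.

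Markers of other cell types also differed between untreated and sham rats. Of 10 leukocyte markers 9 rose and 0 fell, with Tyrobp at 3.6 ± 0.47 and Cd14 at 3.87 ± 0.52. Their mean level, each gene centred over the samples, ranged from 1.22 to 2.81 in untreated rats and from -1.82 to -0.01 in sham rats. Of 7 measured smooth muscle markers 4 fell (median -1.21), and of 7 squamous markers 3 fell (median -0.88). Of 6 fibroblast markers 1 rose (median 0.83), and of 4 nerve markers 3 fell (median -1.87). Of 7 cardiac markers 4 were measured and 0 passed, with a median of 0.96 and 3 of the 4 above 0. Tnnt2, which rose, and Actc1, which fell, are also cardiac genes but were counted in the developmental list and not in this one. The cardiac markers Nppa, Myl7 and Tbx5 did not pass the filter on dim probes. The part of these other cells in the fibre gene values was not tested.

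Low-dose STW5 rats had higher fast fibre genes than untreated rats on the same slide. Of the 6 fast genes 5 rose and 0 fell, and of the 4 slow genes 0 passed in either direction. Over all genes 37.6% were called, 21.7% as higher and 15.9% as lower. The median difference was 0.79 for the slow genes, 1.62 for the fast genes and 0.17 for all genes. Pvalb had levels of 2.57, 3.21 and 2.08 in low-dose rats, against 0.89, 1.28, 0.52 and 0.55 in untreated rats. Actn3 had levels of 6.23, 4.46 and 5.57 in low-dose rats, against 2.95, 3.62, 3.97 and 4.08 in untreated rats. Neither gene overlapped between the groups, and the differences were 1.81 ± 0.33 for Pvalb (3.52-fold, adjusted p = 0.000670) and 1.76 ± 0.40 for Actn3 (3.39-fold, adjusted p = 0.00269). Myh4 rose by 1.5 ± 0.38 (adjusted p = 0.00545), also without overlap, as 22.1% of all genes did in the upward direction. Myh13 rose by 1.74 ± 0.65 (adjusted p = 0.0427) and Myh2 by 1.23 ± 0.47 (adjusted p = 0.0498). The Myh2 call was lost when any of 14 of the 19 samples was left out, with an adjusted p of up to 0.156, and the Myh13 difference was 1.07 without low-dose replicate 3 (adjusted p = 0.239). With these 2 groups fitted alone the adjusted p was 0.0898 for Myh2 and 0.122 for Myh13, and with normexp background Myh4 stood at 0.95. In the value table, whose low-dose columns held arrays labelled high-dose, Actn3 stood at 0.68 (adjusted p = 0.279). Fewer members, 3 of 10, were called without low-dose replicate 3, without the averaged replicates 1 and 2, without untreated replicate 1 or 4, or without high-dose replicate 3.

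The slow genes of low-dose rats stayed within the spread of the untreated samples or above it. Tnnt1 had levels of 6.74, 6.67 and 5.42 in low-dose rats, against 4.43, 5.94, 6.03 and 4.84 in untreated rats, a difference of 0.97 with an interval of -0.23 to 2.16. Myh7 had levels of -1.23, 2.08 and -3.25 in low-dose rats, the widest spread of any member in any group. Its difference was 1.08 with an interval of -1.06 to 3.23. The difference was 0.29 for Tnnc1 (interval -0.88 to 1.45) and 0.61 for Tnni1 (interval -0.20 to 1.42). In the same comparison 9 of 10 leukocyte markers fell, and their mean level ranged from -1.92 to -0.82 in low-dose rats, against 1.22 to 2.81 in untreated rats. Of 6 fibroblast markers 5 fell and of 7 squamous markers 4 rose.

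High-dose STW5 rats also had higher levels of 4 fast members than untreated rats. Of the 12 measured other fast fibre genes 0 passed, although all 12 stood above 0 (median 0.47). Of the 6 fast genes 4 rose, namely Myh13, Myh2, Pvalb and Myh4, and 0 of the 4 slow genes passed, against 9.52% of all genes called, 5.14% as higher and 4.38% as lower. The median difference was 0.98 for the slow genes, 1.40 for the fast genes and -0.01 for all genes. Pvalb, Myh4 and Myh13 lay above untreated rats without overlap, as 9.66% of all genes did. Pvalb had levels of 2.78, 1.96, 1.85 and 2.37 in high-dose rats, all above the 0.89, 1.28, 0.52 and 0.55 of untreated rats (1.44 ± 0.30, adjusted p = 0.00900). Myh2 rose by 1.72 ± 0.44 (3.30-fold, adjusted p = 0.0227) and Myh4 by 1.37 ± 0.35 (adjusted p = 0.0229). The calls of Myh2 and Myh4 were each lost without high-dose replicate 1, 2 or 3, which left 2 of 10 members called. Myh2 was also lost without untreated replicate 1 and Myh4 without untreated replicate 3, and the highest adjusted p when any sample was left out was 0.0730 for Myh2 and 0.0754 for Myh4. With these 2 groups fitted alone it was 0.0608 for Myh2 and 0.0508 for Myh4, and with normexp background Myh4 stood at 0.71 (adjusted p = 0.0698). Actn3 had levels of 4.14, 5.15, 4.32 and 3.88 in high-dose rats, against 2.95, 3.62, 3.97 and 4.08 in untreated rats. Its difference of 0.72 ± 0.37 (adjusted p = 0.214) overlapped. Among the 10 leukocyte markers 3 fell, and their mean level ranged from -0.17 to 0.93 in high-dose rats.

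The Myh13 result depended on the probe. The brighter probe had levels of -0.51, -1.92, -1.25 and -1.83 in high-dose rats, against -4.33, -4.27, -3.35 and -6.06 in untreated rats, without overlap and with a difference of 3.12 ± 0.60 (8.71-fold, adjusted p = 0.00445). The dimmer probe differed by 0.31 ± 0.53, with levels of -5.48, -6.10, -5.36 and -6.01 in high-dose rats, against -6.27, -5.74, -7.06 and -5.11 in untreated rats. It was well above background in at least 50% of its spots on 3 arrays of each of these groups. In low-dose rats the probes gave 1.74 ± 0.65 and 1.55 ± 0.57, and in omeprazole rats 1.99 ± 0.60 and 1.42 ± 0.53. The probes also had opposite signs for high-dose STW5 minus sham (1.74 ± 0.60 and -1.20 ± 0.53) and minus omeprazole (1.14 ± 0.60 and -1.11 ± 0.53). With normexp background the brighter probe gave 0.97 in low-dose, 1.76 in high-dose and 0.91 in omeprazole rats relative to untreated rats. The brighter probe is the one shown above beside that of Myh6.

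Between omeprazole and untreated rats the members differed in both directions at once. Of the 6 fast genes 5 rose and 0 fell, and of the 4 slow genes 2 fell and 0 rose, against 27.7% of all genes called, 15.6% as higher and 12.2% as lower. The median difference was -1.41 for the slow genes, 1.69 for the fast genes and 0.10 for all genes. Tnnc1 had levels of 1.42, 0.54, 0.39 and 0.81 in omeprazole rats, against 2.09, 3.08, 4.4 and 3.83 in untreated rats. Tnnt1 had levels of 4.22, 3.27, 3.13 and 2.46 in omeprazole rats, against 4.43, 5.94, 6.03 and 4.84 in untreated rats. Neither gene overlapped, as was the case for 12.6% of all genes in the downward direction, and the differences were -2.56 ± 0.51 for Tnnc1 (5.90-fold lower, adjusted p = 0.00196) and -2.04 ± 0.52 for Tnnt1 (4.13-fold lower, adjusted p = 0.00889). Tnni1 at -0.39 (interval -1.14 to 0.36) and Myh7 at -0.77 (interval -2.76 to 1.21) did not pass. Of 9 measured genes in the list of other slow fibre genes 1 fell and 0 rose, but 6 stood above 0. The median of that list was 0.38, against 0.10 over all genes, so the fall was not shared by the wider slow list.

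Myh4 differed most among the fast genes of omeprazole rats. Its levels were -0.34, -1.78, -2.08 and -1.53 in omeprazole rats, against -3.29, -3.85, -4.43 and -3.69 in untreated rats, without overlap (2.38 ± 0.35, 5.2-fold, adjusted p = 0.000237). Actn3 rose by 1.75 ± 0.37 (adjusted p = 0.00280), Myh2 by 1.62 ± 0.44 (adjusted p = 0.0122) and Pvalb by 1.10 ± 0.30 (adjusted p = 0.0135). All of these lay above without overlap, as 15.5% of all genes did. Myh13 rose by 1.99 ± 0.60 (adjusted p = 0.0209) with overlap, and its call was lost without untreated replicate 4 or omeprazole replicate 1 or 4 (adjusted p up to 0.0718) or with normexp background (0.91, adjusted p = 0.0586). With normexp background Myh4 stood at 1.47. Tnnt3 stood at 0.46 ± 0.31 (adjusted p = 0.284). Of the developmental genes Tnnt2 fell by 2.01 and Myog, the myogenin gene of differentiating muscle, fell by 1.29. Among the 10 leukocyte markers 8 fell, and their mean level ranged from -1.11 to 0.02 in omeprazole rats. Of 7 smooth muscle markers 3 rose and of 7 squamous markers 4 rose. These 3 drug comparisons and the surgery comparison share the same untreated samples, so their values are given side by side and not correlated.

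**Figure D3:**
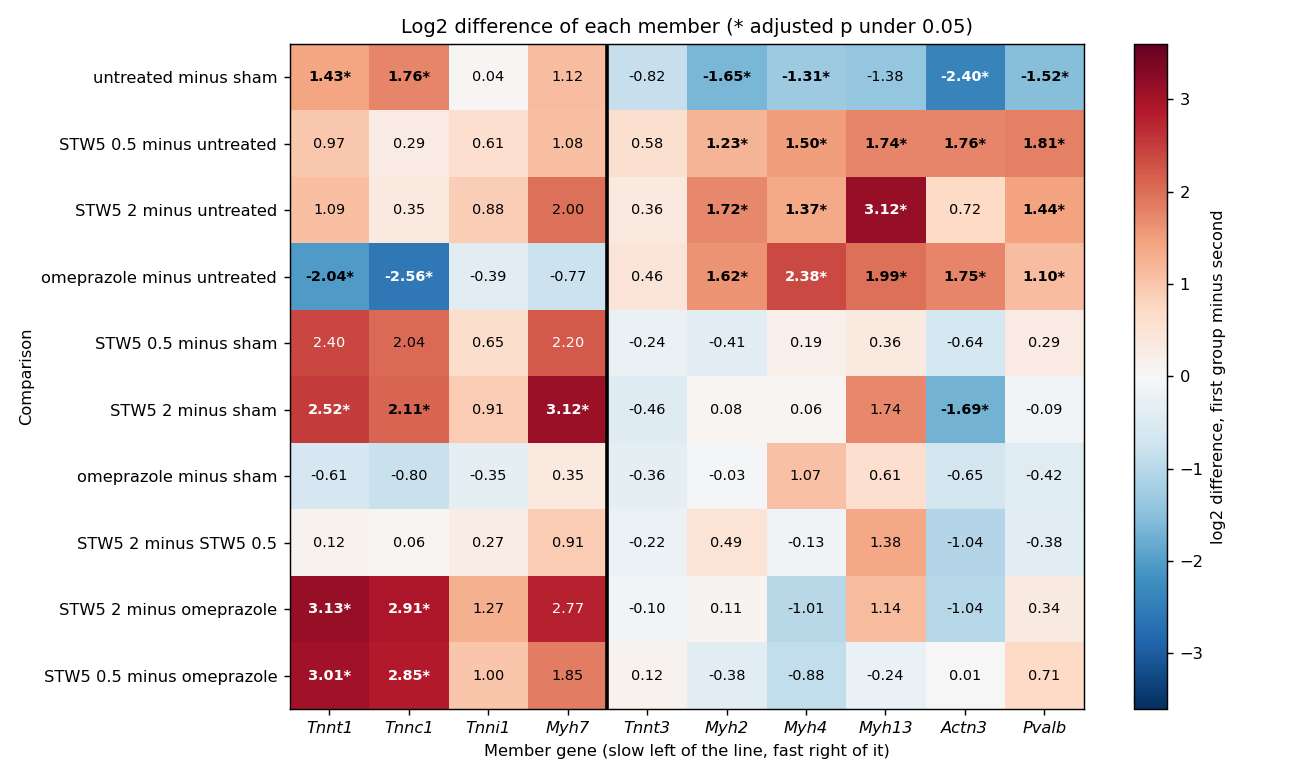
Log2 difference of each member (columns, slow genes left of the line and fast genes right of it) in each of the 10 comparisons (rows, first group minus second), with red for higher in the first group and an asterisk for an adjusted p under 0.05. Against untreated rats 5, 4 and 5 of the 6 fast genes were called higher with low-dose STW5, high-dose STW5 and omeprazole, and the slow genes Tnnt1 and Tnnc1 were called lower with omeprazole at -2.04 and -2.56.

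The drug groups were next set against sham. In high-dose STW5 rats 3 of the 4 slow genes rose and 1 of the 6 fast genes fell, against 8.55% of all genes called, 6.05% as higher and 2.49% as lower. Of the 9 measured other slow fibre genes 0 passed and 5 stood above 0. Their median was 0.06, against -0.09 over all genes, so the wider slow list did not share the rise. Tnnt1 had levels of 6.76, 6.01, 6.30 and 6.54 in high-dose rats, against 3.63, 3.36, 2.97 and 5.56 in sham rats (2.52 ± 0.52, 5.74-fold, adjusted p = 0.00801). Tnnc1 had levels of 3.72, 3.36, 3.81 and 3.92 in high-dose rats, against 2.19, 0.53, 0.76 and 2.88 in sham rats (2.11 ± 0.51, adjusted p = 0.0197). Myh7 had levels of 1.03, -0.55, 0.42 and -0.44 in high-dose rats, all above the -3.24, -3.20, -3.56 and -2.0 of sham rats. All 3 genes lay above sham without overlap, as did 9.8% of all genes, and the Myh7 difference was 3.12 ± 0.94 (8.67-fold, adjusted p = 0.0493). Actn3, at 4.14, 5.15, 4.32 and 3.88 in high-dose rats, lay below the sham samples (6.42, 5.38, 6.42 and 6.03) without overlap. Its difference was -1.69 ± 0.37 (adjusted p = 0.0112), and 8.55% of all genes lay lower without overlap. The Myh7 call was lost when any of 14 of the 19 samples was left out (adjusted p up to 0.134), and the Tnnc1 call without sham replicate 3 or high-dose replicate 3 or 4 (adjusted p up to 0.0758). Each of these last 3 omissions left 2 of the 10 members called. Of the 10 leukocyte markers 4 rose. Of the 4 measured cardiac markers 1 rose, Myh6, and their median was 2.46 with 3 above 0. The part of any of these markers in the drug comparisons was not tested.

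In low-dose STW5 rats 0 of the 10 members passed against sham, where 1 of 13597 genes (0.00735%) was called and 1083 had an unadjusted p under 0.05. The slow genes nevertheless stood 0.65 to 2.40 above sham, with Tnnt1 at 2.40 ± 0.56 (unadjusted p = 0.000555, adjusted p = 0.385) and Tnnc1 at 2.04 ± 0.55 (unadjusted p = 0.00176, adjusted p = 0.398). Tnnc1 did not overlap between these groups, as 4% of all genes did not in the upward direction. The fast genes stood between -0.64 and 0.36. Without low-dose replicate 4, 1 member was called. In the value table, in which these STW5 columns are labelled with the opposite dose, the low-dose columns gave 4 calls against sham, and the high-dose columns gave 0.

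Omeprazole rats also had 0 of 10 members called against sham, with 1.57% of all genes called and 1481 at an unadjusted p under 0.05. The slow genes stood between -0.80 and 0.35 and the fast genes between -0.65 and 1.07. Myh4 had levels of -0.34, -1.78, -2.08 and -1.53 in omeprazole rats, all above the -2.38, -2.68, -2.45 and -2.50 of sham rats. Its difference of 1.07 ± 0.35 had an unadjusted p of 0.00726 and an adjusted p of 0.223, and 3.94% of all genes lay above sham without overlap.

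STW5 and omeprazole rats differed in Tnnt1 and Tnnc1. High-dose STW5 and omeprazole arrays share a slide, and between them Tnnt1 and Tnnc1 were among the 30 genes (0.221%) called of 13597, 0.191% as higher and 0.0294% as lower. Tnnt1 had levels of 6.76, 6.01, 6.30 and 6.54 in high-dose rats, against 4.22, 3.27, 3.13 and 2.46 in omeprazole rats (3.13 ± 0.52, 8.78-fold, adjusted p = 0.0192). Tnnc1 had levels of 3.72, 3.36, 3.81 and 3.92 in high-dose rats, against 1.42, 0.54, 0.39 and 0.81 in omeprazole rats (2.91 ± 0.51, 7.52-fold, adjusted p = 0.0214). The lowest high-dose sample thus lay well above the highest omeprazole sample in both genes. All 4 slow genes lay above without overlap, as 7.96% of all genes did, with Tnni1 at 1.27 ± 0.36 (adjusted p = 0.139) and Myh7 at 2.77 ± 0.94 (adjusted p = 0.181). Of the fast genes 0 passed. Actn3 stood at -1.04 ± 0.37 (adjusted p = 0.194), below omeprazole without overlap, and Myh4 at -1.01 ± 0.35 (adjusted p = 0.188). The call of Tnnt1 was lost when any of 6 of the 19 samples was left out and that of Tnnc1 when any of 7 was, all of them high-dose or omeprazole samples, with an adjusted p of up to 0.0911 and 0.110. No member was left called without high-dose replicate 1, 3 or 4 or omeprazole replicate 2, 3 or 4, and 1 without high-dose replicate 2. The log2 differences in these refits stayed between 2.86 and 3.45 for Tnnt1 and between 2.78 and 3.12 for Tnnc1. Among the 10 leukocyte markers 0 passed between these groups, although all 10 stood higher in high-dose rats. Of the 4 measured cardiac markers 0 passed, with a median of 1.34 and 3 above 0.

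Low-dose STW5 against omeprazole gave the same 2 calls across slides, against 2.41% of all genes, 0.618% as higher and 1.79% as lower. Tnnt1 stood at 3.01 ± 0.56 (8.06-fold, adjusted p = 0.00594) and Tnnc1 at 2.85 ± 0.55 (7.19-fold, adjusted p = 0.00786), both without overlap, as 12.4% of all genes in this direction and 8.11% in the other. Tnni1 at 1.00 (interval 0.19 to 1.81) and Myh7 at 1.85 (interval -0.29 to 4.00) did not pass, and the fast genes stood between -0.88 and 0.71. Without low-dose replicate 3 or the averaged replicates 1 and 2, Tnnc1 was not called (adjusted p up to 0.0589).

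Between the STW5 doses 0 of 10 members passed, whereas 23.9% of all genes did, and 15.2% lay higher and 20.9% lower without overlap. High dose minus low dose was 0.12 for Tnnt1 (interval -1.07 to 1.31) and 0.06 for Tnnc1 (interval -1.10 to 1.23). Actn3 stood at -1.04 (interval -1.88 to -0.21, adjusted p = 0.0642) and Myh13 at 1.38 (interval 0.01 to 2.74, adjusted p = 0.126), while its dimmer probe stood at -1.24 ± 0.57, in the opposite direction. Without low-dose replicate 3 or high-dose replicate 2, 1 member was called. Between the doses 7 of 10 leukocyte and 5 of 6 fibroblast markers were higher in high-dose rats.

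**Figure D4:**
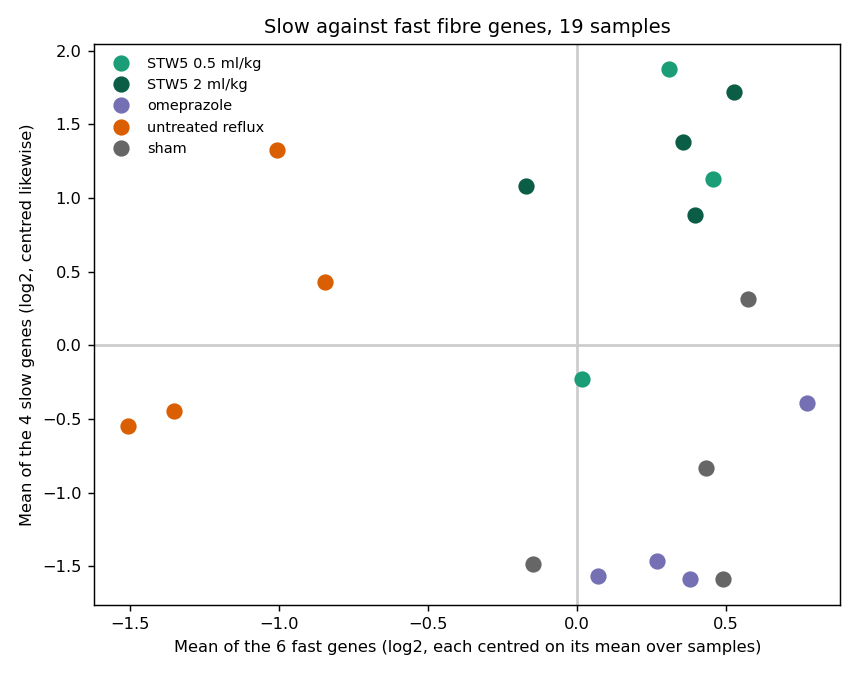
Mean of the 4 slow genes (vertical axis) against the mean of the 6 fast genes (horizontal axis) in each of the 19 samples, in log2 units with each gene centred on its mean over samples. Untreated samples lie at the left (fast mean -1.51 to -0.85). High-dose STW5 samples lie in the upper part (slow mean 0.89 to 1.72), with the highest point being low-dose replicate 3 (1.87), and 3 of 4 omeprazole and 2 of 4 sham samples lie lowest, below -1.4.

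Set side by side, the slow and fast means separated the groups in different ways. The mean of the fast genes, each centred over samples, ranged from -1.51 to -0.85 in untreated rats. It ranged from 0.02 to 0.46 in low-dose rats, from -0.17 to 0.53 in high-dose rats, from 0.07 to 0.77 in omeprazole rats and from -0.15 to 0.57 in sham rats, so the untreated samples did not overlap any other group. The mean of the slow genes ranged from -0.23 to 1.87 in low-dose rats, from 0.89 to 1.72 in high-dose rats, from -1.59 to -0.39 in omeprazole rats, from -0.55 to 1.33 in untreated rats and from -1.59 to 0.31 in sham rats. Here high-dose rats lay above all omeprazole and sham samples, and untreated rats overlapped sham rats. These means are descriptions of genes that were chosen with their values known.

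The pair of troponin T genes can be set against each other within each array, where scaling cancels. The log2 ratio of Tnnt1 to Tnnt3 averaged -0.72 ± 1.06 in low-dose rats (n = 3), -0.38 ± 0.50 in high-dose rats, -3.62 ± 0.70 in omeprazole rats, -1.11 ± 0.54 in untreated rats and -3.36 ± 1.06 in sham rats (SD, n = 4 each). Only changes of this ratio between groups can be read, since the probes differ in brightness. Untreated rats stood 2.25 above sham without overlap, although untreated replicate 4 (-1.91) and sham replicate 4 (-1.94) nearly met. Omeprazole rats stood at -2.51 relative to untreated rats, and high-dose rats stood 3.23 above omeprazole rats and 2.98 above sham rats, also without overlap. In each of these 4 comparisons the two-sided exact permutation test gave p = 0.0286, the smallest that 4 against 4 samples allow, and p = 0.0571 after Benjamini-Hochberg adjustment over the 10 comparisons. The ratio was chosen after the values of both genes had been seen, so the p-values in this paragraph are descriptive and no independent test. Low-dose rats stood 2.89 above omeprazole rats (exact p = 0.0286, adjusted 0.0571) and 2.64 above sham rats (exact p = 0.0571, adjusted 0.0952). The ratio changed by 0.39 with the low dose (exact p = 0.571) and 0.73 with the high dose (exact p = 0.0857) relative to untreated rats, by -0.25 between omeprazole and sham (exact p = 0.743) and by 0.34 between the STW5 doses (exact p = 0.657). With the second Tnnt1 probe the untreated difference from sham was 2.37 (exact p = 0.0571), because sham replicate 4 then lay above untreated replicate 4.

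**Figure D5:**
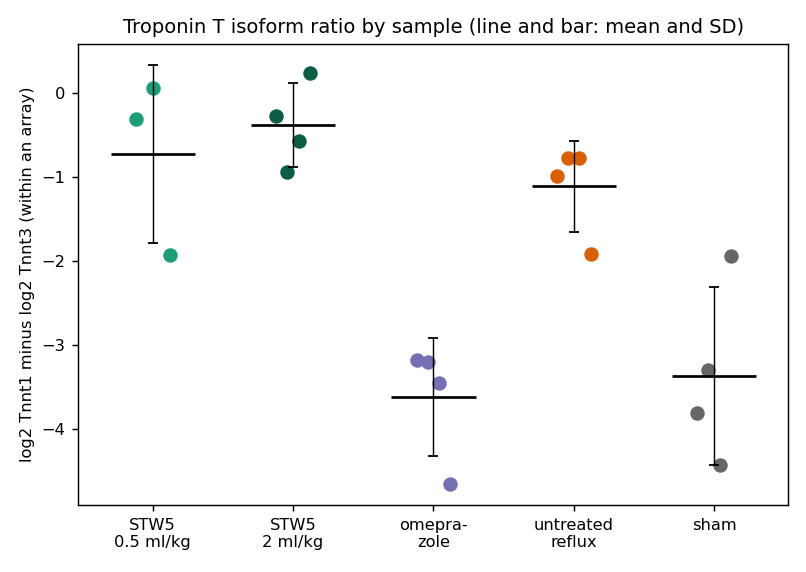
Log2 ratio of Tnnt1 to Tnnt3 within each array (vertical axis) by group, with a point per sample and the mean with SD. Omeprazole samples lie between -4.65 and -3.17 and high-dose STW5 samples between -0.94 and 0.24, and 3 of the 4 sham samples lie below every untreated sample by more than 1 log2 unit.

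Several slow and fast genes varied widely between rats of a group. The within-group SD was 1.45 for Myh7, 0.80 for Tnnt1, 0.78 for Tnnc1 and 0.53 for Tnni1, against a median of 0.35 over all genes. That of Myh7 exceeded 99.2% of genes, and those of Tnnt1, Tnnc1 and Tnni1 exceeded 92.2%, 91.6% and 75.4%. Among the fast genes it ranged from 0.45 for Pvalb (above 65.2% of genes) to 0.92 for Myh13 (above 95.6%), with Myh2 at 0.67 (above 86.2%). High-dose rats had the narrowest spread for Tnnt1 (SD 0.32) and Tnnc1 (SD 0.24) of the 5 groups. The labels do not state the position along the oesophagus, and its part in this spread was not tested.

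Of all other genes, Myh6 was most like the slow members, with a Pearson r of 0.94 with their mean over 19 samples. It was called higher in high-dose rats than in sham rats (3.89 ± 1.03, adjusted p = 0.0298), as Myh7 was. LOC100359980, which the array file describes as a myosin light chain 6B-like gene, followed (r = 0.93). It stood at 1.61 in untreated rats relative to sham (adjusted p = 0.0190), at -1.74 with omeprazole relative to untreated rats (adjusted p = 0.0146) and at 2.75 between high-dose STW5 and omeprazole (adjusted p = 0.0242). Fabp3, the fatty acid binding protein gene of heart and oxidative muscle, had an r of 0.83, as had Ablim3, and Adprhl1 had 0.82. The genes most like the fast members were Tafazzin and Phtf2 (r = 0.93 each), Ercc5 (0.92), Ppp1r12b, a regulatory subunit gene of myosin phosphatase (0.91), and Tcaim (0.91). Ppp1r12b was lower in untreated rats than in sham rats by -1.99 and higher in low-dose, high-dose and omeprazole rats than in untreated rats by 1.68, 1.37 and 1.32. These samples share slides and groups, so the coefficients describe the data and carry no test.

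The wider muscle lists were also counted in the drug groups. Of the 12 other fast fibre genes 6 rose with the low dose, 0 with the high dose and 2 with omeprazole, relative to untreated rats, and 0 fell. Over all genes 21.7%, 5.14% and 15.6% were called higher in these comparisons, so the omeprazole count is near the background. Of the 13 genes of all striated fibres 5 rose with the low dose, 0 with the high dose and 3 with omeprazole. Of the 9 regulators 5 rose with the low dose, 2 with the high dose and 4 with omeprazole. Of the 9 other slow fibre genes Mybpc1 rose (1.14 ± 0.39) and Tpm3 fell (-1.16 ± 0.26) with the low dose, 0 passed with the high dose and Tpm3 fell with omeprazole (-0.89 ± 0.24). Against sham, Chrng was called higher in high-dose rats (3.30 ± 0.73, adjusted p = 0.0117). In the comparison of high-dose STW5 with omeprazole, 0 genes of all these lists passed, including the 9 other slow fibre genes, whose median was 0.15 against -0.07 over all genes.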

How the data were processed

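RNA of oesophageal tissue was hybridised to 20 Agilent 1-colour rat arrays, 4 per group, from separate animals per the series' design text. Per the file headers, the deposited scanner files hold spot intensity values from Agilent Feature Extraction 10.7.3.1, background-subtracted and not scaled between arrays. The deposited value table, used as an alternative, holds a ratio to each array's median, as its values show, and how it was made is not given in the sources used here. The log2 intensity minus the array's 75th percentile was taken, spots of a probe were averaged, and probes with at least 50% of spots well above background on at least 4 arrays were kept (16099). The probe with the highest mean stood for its gene. Contrasts came from limma 3.58.1 (R 4.3.3) over 13597 genes and 19 samples in 1 fit, with adjusted p (Benjamini-Hochberg) under 0.05 as a call, and the fit was tested on simulated data. The number of arrays limits the precision. The members and gene lists were chosen with earlier results of these data known, and the Tnnt1 to Tnnt3 ratio was added after seeing the data. All members are named. Of each list up to 4 genes with the smallest p are named, and of genes most like the members the 5 with the highest r. Alternatives were median scaling, quantile normalization, normexp background, other filters, all 20 arrays, a replicate block, array weights, fits of 2 groups, the mean over probes, the value table and leaving out each sample.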

Additional observations from a re-analysis of the deposited data

Results flagged for a closer look

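Of 40 sets of 4 samples, 1 for each member in each group of 4, 3 held a sample that stood far from the rest of its group, and chance alone gives about 1 in 20. Tnnt3 was 6.66 in sham replicate 2, while the other sham samples lay between 7.39 and 7.50. Tnnt3 was also low in untreated replicate 1, at 5.42, while the other untreated samples lay between 6.72 and 6.80. Actn3 was 5.85 in omeprazole replicate 4, above the other omeprazole samples, which lay between 5.21 and 5.30.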

How the results depend on the processing

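Each of the 30 calls of a member was examined under 30 other settings. Direction was kept in all 900 combinations of a call and a setting, and the call was lost in 98 of them. Combinations of the value table with an STW5 comparison are included, although its doses are exchanged. High-dose minus low-dose STW5, with 0 members called, had 1 with median scaling, 1 with normexp background, 1 with all 20 arrays, 1 in the value table and 2 with the replicate block. Array weights gave 4 members for low-dose STW5 minus sham (0 as reported), 7 for high-dose STW5 minus sham (4), 3 for omeprazole minus sham (0), and 4 each for high-dose and low-dose STW5 minus omeprazole (2 each). With only the 2 groups fitted, the count was 3 for untreated minus sham (6), 3 for low-dose STW5 minus untreated (5), 2 for high-dose STW5 minus untreated (4) and 4 for high-dose STW5 minus omeprazole (2). The value table gave 4 for low-dose and 0 for high-dose STW5 minus sham. These are the reported counts with the doses exchanged, and its STW5 columns held the values of arrays labelled with the opposite dose. The causes of the other changes were not tested. Leaving out 1 sample gave 4 to 7 for untreated minus sham, 3 to 5, 2 to 4 and 6 to 7 for low-dose STW5, high-dose STW5 and omeprazole minus untreated, 0 to 1, 2 to 5 and 0 to 0 for the same drugs minus sham, 0 to 1 for high-dose minus low-dose STW5, and 0 to 2 and 1 to 2 for high-dose and low-dose STW5 minus omeprazole.

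Replicate numbers were not used to pair the samples in the reported fit. Same-numbered pairs of different groups correlated from -0.32 to 0.58, and 19 of 40 exceeded 0.1. Their mean was 0.06, against -0.02 for pairs with other numbers, and these values do not settle whether the samples were paired. The replicate block gave 5 members for untreated minus sham, where Tnnt1 was lost (adjusted p = 0.0585), as it was without a filter (0.0577), and 5, 4 and 7 for low-dose STW5, high-dose STW5 and omeprazole minus untreated. Counts over all genes moved by more than 1.5 times in several settings. Value-table counts for a single STW5 dose below come from columns that held arrays labelled with the opposite dose. High-dose STW5 minus omeprazole had 30 genes, 2257 with array weights, 1173 with 2 groups, 1018 in the value table, 77 with the block, 67 with normexp, 51 with median scaling and 12 with the strict filter. Low-dose STW5 minus omeprazole had 328, and 2729, 183, 43, 1149, 1847 and 1019 under the first 6 of these settings, with 1136 for all 20 arrays. Low-dose STW5 minus sham had 1, against 2590 with array weights, 1471 in the value table, 5 with the block and 0 with the others that moved it. High-dose STW5 minus sham had 1162, against 7089 with array weights and 0 in the value table, and omeprazole minus sham had 213, against 3564 with array weights and 116 with normexp. High-dose minus low-dose STW5 had 3252, against 6342 with array weights, 5732 without a filter, 5541 with normexp and 4986 with the block. With 2 groups fitted, untreated minus sham had 2264 (4476 as reported), low-dose STW5 minus untreated 2798 (5112) and high-dose STW5 minus untreated 480 (1294), and the value table gave 1186 and 5312 for the STW5 doses minus untreated. Median scaling moved the median of all genes to 0.27 for low-dose STW5 minus untreated, -0.28 for high-dose minus low-dose STW5, -0.21 for high-dose STW5 minus sham, -0.18 for omeprazole minus sham, -0.17 for untreated minus sham and 0.26 for low-dose STW5 minus omeprazole.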
